A study of Homo sapiens with 32 samples.

Results

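The 10 genes described here belong to the smooth muscle contractile apparatus and were followed through every arm of an RNA-seq study of Ewing sarcoma cell lines: ACTA2, TAGLN, CNN1, CNN2, CNN3, MYL9, CALD1, TPM1, TPM2 and LMOD1. They were taken by symbol, as a family of actin, transgelin, calponin, tropomyosin, caldesmon, light chain and leiomodin genes. All 10 of 10 were found among the 28278 gene symbols of the count tables, and all 10, by their Ensembl gene, among the 60199 genes of the knockdown table.

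Smooth muscle contracts when calcium and calmodulin switch on the myosin light chain kinase MYLK, which phosphorylates the regulatory light chain of myosin and lets myosin pull on thin filaments of alpha-actin. Tropomyosins lie along those filaments, and caldesmon and calponin bind them and restrain myosin until the muscle is stimulated. Many of these genes share control by the serum response factor SRF, which binds a motif called the CArG box together with either MRTF proteins, released when cells polymerise actin, or myocardin, and cells that are not muscle use several of them in stress fibres.

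Ewing sarcoma is a bone and soft tissue tumour driven by the fusion EWS::FLI1, and the study asked what loss of the cohesin subunit STAG2 does to transcription in it. A673, SK-N-MC and A4573 are established Ewing sarcoma cell lines. The A673 libraries belonged to 4 experiments. In experiments 1 to 3, the WT clone was A673 carrying an inducible Cas9 (iCas9) with no further edit, the parental line was A673 without that insertion, and every knockout (KO) was a clone that had been edited by CRISPR from the iCas9 cells. Experiment 1 held 2 WT clone libraries, 1 parental library and 2 STAG2 KO libraries, whose columns carry the numbers 5 and 24 where the labels number the clones 1 and 4. Experiment 2 held 2 WT clone, 1 parental, 3 STAG2 KO (clones 2, 3 and 5), 3 EZH2 KO and 3 SUZ12 KO libraries, EZH2 and SUZ12 being subunits of the Polycomb repressive complex PRC2. A STAG2 KO column numbered 5 thus stands in both experiments, and whether the 5 STAG2 KO libraries are 5 distinct clones cannot be told. Experiment 3 held 1 WT clone, 1 parental and 3 STAG1 KO libraries, STAG1 being the other subunit that can take the place of STAG2 in cohesin. Experiment 4 held 3 A673 libraries after transfection of a pool of siRNAs against STAG2 (siSTAG2) and 3 after a control transfection; the labels call these controls WT, the word they use for the iCas9 clone, while the paper describes parental cells, so it was not settled here which was transfected. SK-N-MC was measured as 1 library with STAG2 and 1 STAG2 KO library, and A4573, a line that lacks STAG2, as 1 library and 1 library of its STAG2 knock-in (KI). A KO group is thus a handful of single-cell clones, each line outside A673 is 1 clone against 1 line, and the p-values below measure the spread between these libraries only.

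The libraries of experiments 1 to 3 held 15734628 to 20663679 counts, the 4 libraries of the other lines 29322507 to 32261248, and those of the knockdown 6852340 to 8184632 reads. STAG2 mRNA was lower in the STAG2 KO libraries (log2 fold change -1.81 ± 0.32 SE, edgeR quasi-likelihood adjusted p = 0.00424) and after siSTAG2 (-2.72, limma adjusted p = 4.01e-18), and EZH2 and SUZ12 mRNA were lower in their own KO libraries (-1.98 and -1.90). One STAG2 KO library of experiment 1, numbered 24, kept 184 CPM of STAG2 against 42.4 to 69.4 CPM in the other STAG2 KO libraries and 256 to 361 CPM in their controls, and STAG1 mRNA in the STAG1 KO libraries did not pass the test (-0.80 ± 0.51, edgeR adjusted p = 0.376). Defining smooth muscle markers were nearly absent from A673: over 22 libraries, MYH11 reached 0.162 CPM at most, DES 1.04 CPM, MYOCD 0.586 CPM, ACTG2 2.24 CPM and SYNPO2 3.83 CPM, and only SMTN, at 11.6 to 38.6 CPM, was well above 0. Of the Ewing sarcoma markers, NR0B1 was present at 52.6 to 522 CPM and NKX2-2 at 25.3 to 149 CPM. CD99, a marker on the same list, was at 0 in the counts, though not in the separately made knockdown values. The 10 genes are therefore described here as contractile genes of a tumour line and not as signs of smooth muscle cells. CPM, counts scaled to library size, were computed with TMM factors over all 26 count libraries.

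Positions are those of GENCODE v44 on hg38. ACTA2, smooth muscle alpha-actin, lies at chr10:88935074-88991339 on the minus strand, and TAGLN, the actin-bundling protein transgelin (SM22), at chr11:117199370-117207464 on the plus strand. The calponins, which bind actin and slow myosin's ATPase, are CNN1 (smooth muscle calponin, chr19:11538767-11550323), CNN2 (chr19:1026586-1039068) and CNN3 (chr1:94896949-94927223, minus strand). CALD1, caldesmon, lies at chr7:134744252-134970729, and the tropomyosins at chr15:63042620-63071915 for TPM1 and chr9:35681992-35690056 on the minus strand for TPM2. MYL9, the regulatory light chain that MYLK phosphorylates, lies at chr20:36541497-36551447, and LMOD1, the smooth muscle actin nucleator leiomodin, at chr1:201896456-201946548 on the minus strand. By the paper's methods the libraries were not directional, so reads of a gene and of one overlapping it on the opposite strand cannot be told apart. The knockdown columns carry the letters FWD, and whether those libraries kept the strand was not settled. Such overlaps were 1638 exonic bases of ACTA2 with ACTA2-AS1 and 387 with FAS, 2233 of TAGLN with PCSK7 and 2645 of TPM1 with TPM1-AS. Unnamed genes on the opposite strand shared 338 exonic bases with CNN2, 691 with TPM1 and 536 with LMOD1, and on the same strand 401 with ACTA2 and 2498 with TAGLN.

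The promoters, 300 bases of RefSeq sequence on GRCh38.p14, were found for 8 of the 10 genes (14 promoters; TAGLN and MYL9 were not among them) and searched on both strands for the CArG box and for the letters GGAAGGAA (a GGAA repeat, the sequence class that EWS::FLI1 binds) and CATTCC (the motif of TEAD factors, whose reverse complement begins with GGAA and can share bases with the former). An exact CArG box stood only before CNN2. ACTA2 held 2 copies with 1 substitution in the A/T core before the start that lies inside its gene model. CALD1 held 1, before a start that lies upstream of the gene span given above. GGAAGGAA stood once, before CNN3, and CATTCC before 5 of the 14 starts (1 of ACTA2, 1 of CNN3, 1 of LMOD1 and 2 of CALD1). Of all 35116 promoters, 1.29% held an exact box, 6.94% a box with 1 such substitution, 3.67% GGAAGGAA and 14% CATTCC. The sequences are shown because ACTA2 and CNN2 are the members that passed the test after STAG2 knockdown, and CALD1 and CNN3 are compared with them. Each is written 5′ to 3′ on the strand of its gene with the match in capitals. The windows are chr10:88952774-88952923 on the minus strand for ACTA2, chr19:1026509-1026538 for CNN2, chr7:134711463-134711492 for CALD1 and chr1:94925911-94925940 on the minus strand for CNN3, where the capitals are GGAAGGAA read from the other strand.
ACTA2: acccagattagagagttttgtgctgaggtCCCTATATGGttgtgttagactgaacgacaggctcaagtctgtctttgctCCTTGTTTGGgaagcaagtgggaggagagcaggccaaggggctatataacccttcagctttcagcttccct
CNN2: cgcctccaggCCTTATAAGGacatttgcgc
CALD1: ccagaggtccCCTAAAGAGGaatacattct
CNN3: aaatcctctccTTCCTTCCtccctccctgc
A match is a description of the letters in these windows.

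Per kilobase of the principal transcript, the members spanned several orders of magnitude in A673. Over the 22 libraries, CNN3 was highest with a mean of 118 CPM per kb (SD 44.8), followed by ACTA2 (87.5, SD 43.6), CNN2 (73.9, SD 29.8), CALD1 (50.4, SD 20.1), TPM1 (45.9, SD 44.1) and TPM2 (42.8, SD 24.3). Neighbours in that order among these 6 differed by less than the larger SD of the pair, though CALD1 lay below CNN2 by more than its own SD. TAGLN followed at 8.66 CPM per kb (SD 11.2), and the lowest members were CNN1 at 0.869 (SD 0.600), LMOD1 at 0.149 (SD 0.128) and MYL9 at 0.0192 (SD 0.0527). The order differed in the other lines. In SK-N-MC with STAG2, CNN2 led with 146 CPM per kb and ACTA2 stood at 31.4. In its STAG2 KO, TPM2 led, with 314 CPM over 1190 bases. In A4573 without STAG2 CNN3 led with 183 CPM per kb and in its STAG2 KI ACTA2 led with 182 CPM per kb.

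**Figure D1:**
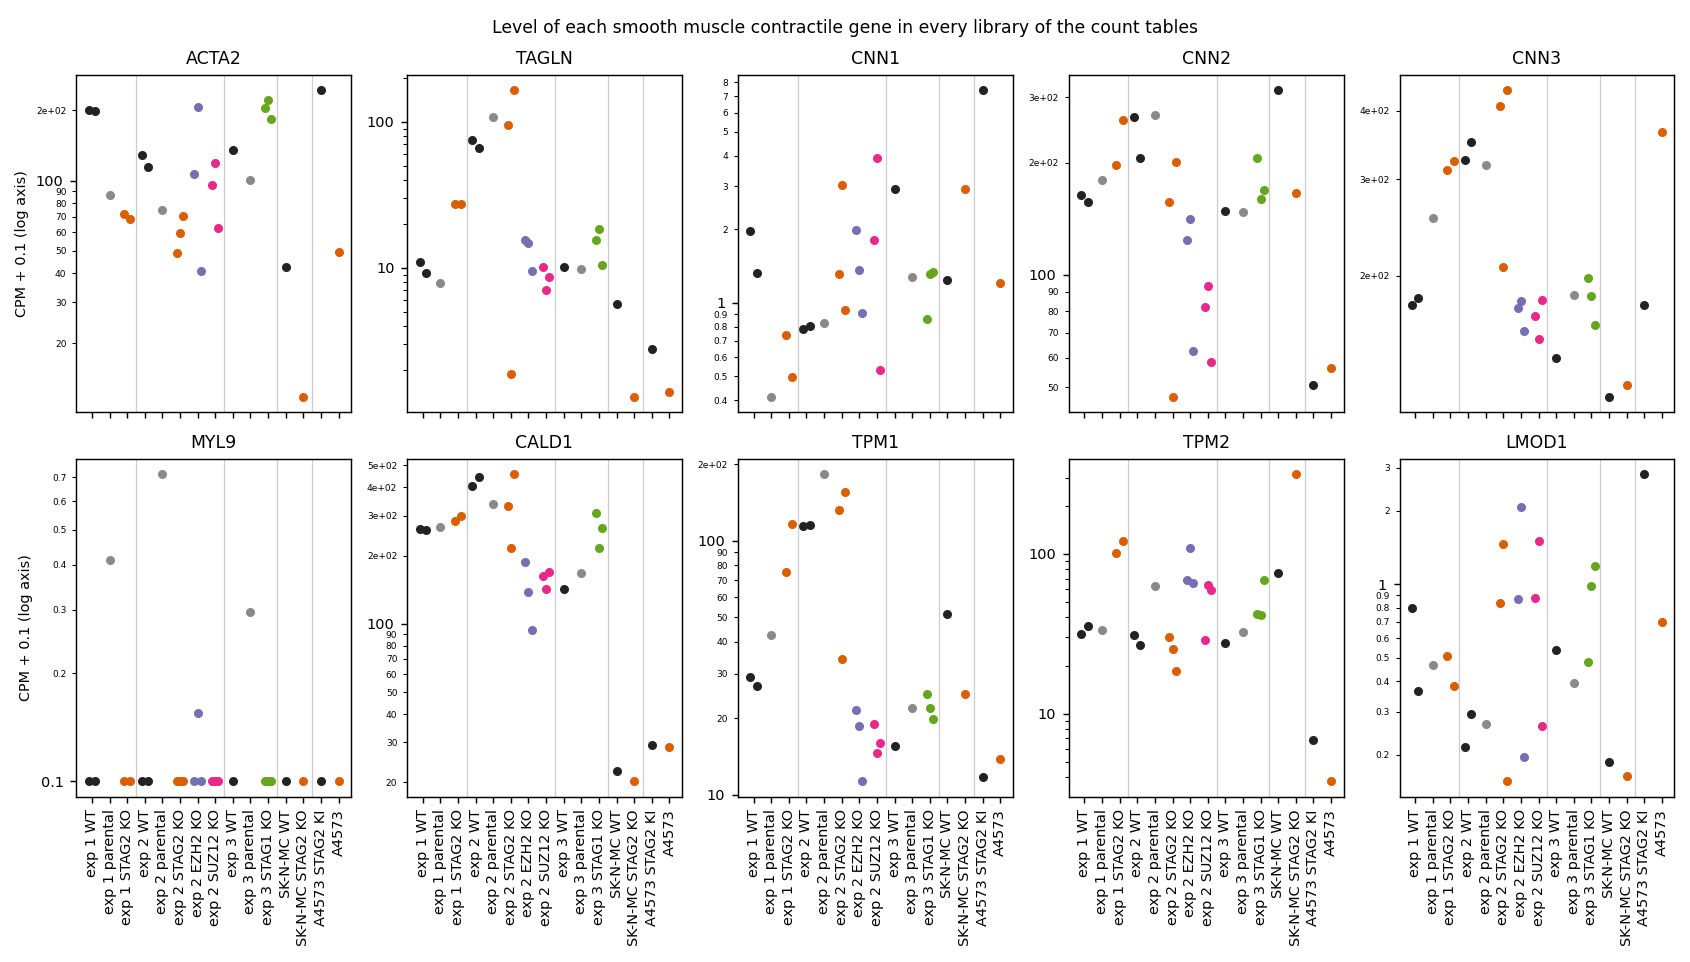
Level of each of the 10 genes in every count library, as CPM plus 0.1 on a log axis, with libraries along the horizontal axis by experiment and line; black points are the WT clone, SK-N-MC WT and A4573 STAG2 KI, grey points the parental line, orange points STAG2 KO or A4573 without STAG2, purple EZH2 KO, pink SUZ12 KO and green STAG1 KO. ACTA2 is lower in all 5 A673 STAG2 KO libraries than in any control library, TAGLN and TPM1 are high in the controls of experiment 2, and MYL9 is above 0 in the 3 parental libraries and 1 EZH2 KO library.

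The controls themselves differed between experiments in some members, and this sets what each experiment can show. TAGLN stood at 75.3 and 65.8 CPM in the WT clone and 108 CPM in the parental line in experiment 2, against 7.82 to 10.8 CPM in the 5 controls of experiments 1 and 3. TPM1 stood at 115, 116 and 182 CPM against 15.4 to 42.5 CPM. The mean difference was 8.51-fold for TAGLN and 5.22-fold for TPM1, and only 0.597% and 1.86% of 13574 genes had a larger one. CALD1, CNN3 and CNN2 were also apart and higher in experiment 2 (1.85-, 1.80- and 1.54-fold), as 50.3% of those genes were apart in either direction, whereas ACTA2, CNN1 and TPM2 overlapped. In the tests below, each KO is therefore set against the controls of its own experiment, or the experiment is a term of the fit.

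Loss of STAG2 in A673 went with less ACTA2 mRNA and, in the 2 experiments together, with no other member past the test. In experiment 1, ACTA2 stood at 201 and 199 CPM in the WT clone, 86.3 CPM in the parental line, and 71.7 and 68.0 CPM in the STAG2 KO libraries. In experiment 2, it stood at 128 and 114 CPM in the WT clone, 74.3 CPM in the parental line, and 70.3, 48.5 and 59.7 CPM in STAG2 KO clones 2, 3 and 5. Every STAG2 KO library was thus below every control of its experiment, but the parental line lay closer to the KO libraries than to the WT clone in both. With the experiment as a term, ACTA2 fell by 0.96 on the log2 scale (± 0.24 SE, 6 control and 5 KO libraries, edgeR quasi-likelihood adjusted p = 0.0236). It was the only 1 of 8 tested members called at an adjusted p under 0.05, where 12.4% of the 13574 genes tested were called, 6.67% higher and 5.76% lower. In a bulk library, a lower share of cells carrying the RNA and less RNA per cell cannot be told apart.

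The size of that fall depended on the control. Against the WT clone alone it was -1.21 (edgeR adjusted p = 0.00246), and against the parental line alone -0.31 (adjusted p = 0.701). Leaving out any 1 library kept ACTA2 lower by 0.87 to 1.10 on the log2 scale, and the call held in 7 of 11 such fits (adjusted p 0.00854 to 0.0701). It was lost without either STAG2 KO library of experiment 1 (0.0701 and 0.0638), without the first WT clone library of experiment 2 (0.0576) and without STAG2 KO clone 3 (0.0519). The 2 WT clone libraries of experiment 1 were nearly duplicates, the chi-square of their counts averaging 1.31 over genes against 8.82 between those of experiment 2, and with their counts summed as 1 library ACTA2 stood at -0.87 (adjusted p = 0.0469).

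Markers of other cells and of the tumour moved with ACTA2 in part. Fibroblast markers are expressed beside ACTA2 by a myofibroblast. Of 6 listed, DCN (-4.04), LUM (-3.36) and COL1A1 (-1.55) were called lower in STAG2 KO and THY1 (0.68) higher. Their summed level was 474 to 628 CPM in the STAG2 KO libraries of experiment 1 against 543 to 561 CPM in its controls, and 457 to 707 CPM against 600.3 to 1192 CPM in experiment 2. Of 7 Ewing sarcoma markers tested, PRKCB (-0.97) and CCND1 (-0.56) were called lower and NR0B1 (0.78) higher, and their summed level was lower than in all controls in both experiments, at 2103 to 2923 CPM against 3208 to 3640 CPM and at 2119 to 2197 CPM against 2831 to 3015 CPM. The summed striated muscle markers overlapped in experiment 1 (7.64 to 35.8 CPM against 24.4 to 31.1 CPM) and were higher in experiment 2 (29.8 to 66.3 CPM against 8.79 to 16.2 CPM). The part of these markers in the ACTA2 result was not tested.

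The actin-binding members did not pass the test in the joint fit. TAGLN stood at 27.3 and 27.2 CPM in the STAG2 KO libraries of experiment 1, above its 3 controls (10.8, 9.06 and 7.82 CPM). In experiment 2 it stood at 165, 94.5 and 1.79 CPM in clones 2, 3 and 5, on both sides of its controls. The joint fit gave 0.76 ± 0.69 (edgeR adjusted p = 0.539). CNN3, a calponin of non-muscle cells, was at 312 and 323 CPM against 177 to 255 CPM in experiment 1, and at 436, 407 and 207 CPM against 319 to 351 CPM in experiment 2 (0.37 ± 0.19, adjusted p = 0.246). CNN2, the other broadly expressed calponin, was at 197 and 260.4 CPM against 157 to 180.3 CPM in experiment 1 and at 201, 157 and 47.0 CPM against 205 to 269 CPM in experiment 2 (-0.23 ± 0.34, adjusted p = 0.727). Both calponins were thus higher than all controls in experiment 1, while in experiment 2 CNN2 was lower than all of them and CNN3 overlapped.

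The filament regulators did not pass the test in the joint fit either. TPM2 stood at 101 and 120.4 CPM in the STAG2 KO libraries of experiment 1 against 31.2, 35.1 and 33.1 CPM in the controls. In experiment 2 it stood at 18.4, 30.2 and 25.1 CPM in clones 2, 3 and 5 against 31.1, 26.8 and 63.2 CPM. TPM1 was at 75.5 and 116 CPM against 26.7 to 42.5 CPM in experiment 1, and at 156, 132 and 34.2 CPM against 115 to 182 CPM in experiment 2. CALD1, which locks tropomyosin in its inhibitory place, showed little difference at 285 and 298 CPM against 260.1 to 268 CPM, and at 456, 332 and 216 CPM against 337 to 443 CPM (-0.03 ± 0.16, adjusted p = 0.943). The joint values were 0.47 ± 0.43 for TPM2 and 0.55 ± 0.43 for TPM1 (edgeR adjusted p = 0.541 and 0.463). CNN1 stood under 3 CPM in every one of these libraries (0.32 ± 0.63, adjusted p = 0.806), and LMOD1 and MYL9 were too low to be tested.

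The experiments were therefore also fitted singly. In experiment 1, 6 of 8 members were higher and 1, ACTA2, lower than all controls, beside 61.5% of genes that did not overlap, 30.5% higher and 31% lower. The test called 4, all higher: TPM2 (1.74), TAGLN (1.57), TPM1 (1.55) and CNN3 (0.64), with edgeR adjusted p of 0.00258, 0.0074, 0.0161 and 0.0497, while ACTA2 was at -1.21 (adjusted p = 0.0604). In that fit 25.9% of 14145 genes were called. It took the nearly duplicate WT clone libraries as separate controls, and they were not summed in it. In experiment 2, CNN1 was higher and ACTA2 and CNN2 were lower than all controls and 5 members overlapped, beside 33% of genes that did not overlap. There edgeR called 0 of 8 members, 1 at an unadjusted p under 0.05, with ACTA2 at -0.77 (adjusted p = 0.11), and 3.69% of 13383 genes. Clone 5 stood apart within experiment 2, with the lowest TAGLN, CNN2, CNN3, CALD1 and TPM1 of the 3 clones, and leaving it out of the joint fit raised the calls from 1 to 4: TAGLN 1.13, TPM1 0.87 and CNN3 0.52 higher and ACTA2 -0.99. Over all genes the share called rose with them, from 12.4% to 29.6% of 13670.

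The difference between the 2 experiments in the effect of STAG2 KO was then tested itself, a comparison added after the values had been seen. TPM2 differed by 2.46 ± 0.45 (edgeR adjusted p = 0.0795), TPM1 by 1.91 ± 0.68 (0.107), CNN2 by 1.32 ± 0.58 (0.155), LMOD1 by -2.51 ± 1.29 (0.206) and CNN1 by -2.36 ± 1.001 (0.146). TAGLN differed by 1.49 ± 1.36 (0.462), CNN3 by 0.55 ± 0.37 (0.313), CALD1 by 0.38 ± 0.33 (0.435) and ACTA2 by -0.40 ± 0.45 (0.557). MYL9 was too low to be tested. edgeR's quasi-likelihood test called 0 of 9 members and 0 of 14616 genes (0%), with 4 members and 4483 genes at an unadjusted p under 0.05, and DESeq2 called 2 members and 10.5% of 21063 genes. TPM2 passed the threshold in edgeR without the experiment 1 library numbered 5 (adjusted p = 0.0458) and without clone 5 (0.0357) or clone 2 (0.0426) of experiment 2.

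**Figure D2:**
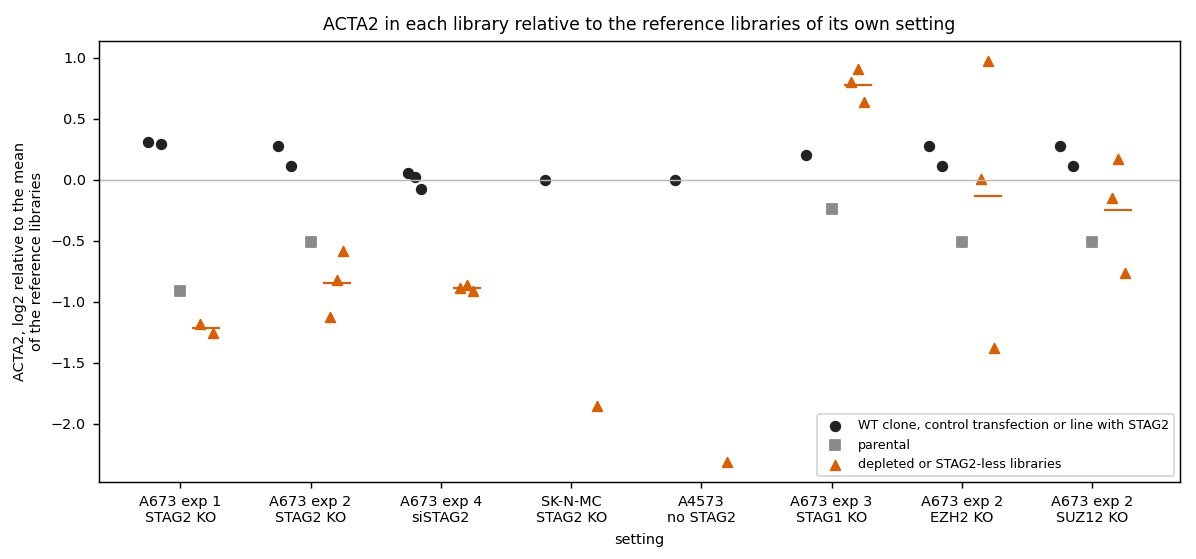
ACTA2 in each setting as log2 of its level relative to the mean of the reference libraries of that setting. Black circles are the WT clone, the control transfection or the line with STAG2, grey squares the parental line, orange triangles the depleted libraries, and a short line marks the mean. The A673 STAG2 KO, siSTAG2, SK-N-MC STAG2 KO and A4573 libraries without STAG2 all lie below 0. In experiments 1 and 2 the STAG2 KO libraries lie below the parental square and closer to it than to the WT clone circles.

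Acute depletion of STAG2 by siRNA lowered ACTA2 and CNN2. The deposited values are reads divided by 1 factor per library. ACTA2 was at 752, 735 and 687 after the control transfection and at 393, 399 and 385 after siSTAG2. CNN2 was at 1803, 1506 and 1744 against 1157, 1102 and 1195. The groups were far apart for both, ACTA2 falling by 0.88 ± 0.07 and CNN2 by 0.54 ± 0.07 on the scale of log2(value + 1) (3 and 3 libraries, limma adjusted p = 5.93e-10 and 8.57e-07). They were 2 of 7 tested members called, where 20.5% of 12060 genes were called, 9.54% higher and 11% lower.

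The other 5 tested members did not pass the test. TPM2 was at 193, 212 and 199 after the control and 249.6, 227 and 248 after siSTAG2, higher in each siSTAG2 library than in any control but just short of the threshold (0.26 ± 0.10, limma adjusted p = 0.052), and called without the second control library (0.0401). TAGLN was at 91.5, 85.6 and 109 against 84.3, 59.3 and 90.8, with overlap (-0.30 ± 0.16, adjusted p = 0.208). CNN3 (0.13 ± 0.10), CALD1 (0.04 ± 0.06) and TPM1 (0.12 ± 0.08) also overlapped between the groups, with limma adjusted p of 0.419, 0.686 and 0.328. In all, 3 of 7 members did not overlap, beside 35% of genes. MYL9 was at 8.58, 2.95 and 5.21 against 5.55, 0.927 and 3.86, and CNN1 and LMOD1 were at 5.8 or less, all too low to be tested. Fibroblast markers again moved beside ACTA2: COL1A1 (-1.88), LUM (-3.38), DCN (-2.62) and COL3A1 (-0.41) were called lower and THY1 (0.48) higher among 5 tested, their summed value being 2141 to 2377 after the control and 1883 to 1985 after siSTAG2. Of 8 Ewing sarcoma markers, 4 were called lower, CD99 (-0.75), STEAP1 (-0.63), PRKCB (-0.29) and CCND1 (-0.20), and NR0B1 (0.48) higher, with a sum of 24319 to 25220 after the control and 19218 to 20071 after siSTAG2. Within that sum, CCND1 alone was at 12862 to 13154 after the control and 11116 to 11502 after siSTAG2. Both striated muscle markers tested were called lower, TNNT2 (-1.26) and TNNT1 (-0.60), with sums of 221 to 251 and 140.1 to 166. TNNT1 alone supplied 200 to 221 and 127 to 143 of these. The sums of all 3 lists were thus lower in every siSTAG2 library, and the part of these markers in the ACTA2 and CNN2 results was not tested.

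In the other 2 lines ACTA2 was also lower without STAG2, each with 1 library per arm and so with no test. In SK-N-MC, ACTA2 was at 42.3 CPM with STAG2 and 11.7 CPM in the STAG2 KO, from 1451 and 367 counts. In A4573 it was at 49.2 CPM in the line without STAG2 and 245 CPM in the KI, from 1566 and 7851 counts. The log2 ratio without against with STAG2 was -1.87 (95% counting interval -2.04 to -1.71) in SK-N-MC and -2.26 in A4573 (-2.34 to -2.19). These intervals cover counting error only. STAG2 mRNA itself was at 179 against 281 CPM in SK-N-MC and 32.3 against 85.2 CPM in A4573.

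The other members differed more between the 2 lines. In SK-N-MC, TPM2 was at 75.8 CPM with STAG2 and 314 CPM without it (log2 2.03, interval 1.97 to 2.09), and TPM1 was at 51.2 and 24.9 CPM (-1.06, -1.18 to -0.94). TAGLN was at 5.54 and 1.21 CPM (-2.16, from 190 and 38 counts) and CNN1 at 1.14 and 2.84 CPM (1.26, from 39 and 89 counts). With ACTA2 these make 5 of 8 members past 2-fold, where 21.6% of 16413 genes were (10.2% higher and 11.4% lower), and CNN2 (314 and 166 CPM, -0.94), CNN3 (0.05) and CALD1 (-0.18) stayed within it.

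In A4573, the members past 2-fold were 4 of 9, beside 21.8% of 16124 genes (7.76% higher and 14.1% lower). ACTA2, CNN1 (1.10 CPM without and 7.34 CPM with STAG2, log2 -2.62) and LMOD1 (0.597 and 2.72 CPM, -2.03, from 19 and 87 counts) were lower without STAG2, and CNN3 was higher (365 and 177 CPM, 1.10, interval 1.05 to 1.14). TPM2 was at 3.68 and 6.74 CPM (-0.81, -1.16 to -0.49), the opposite direction to SK-N-MC, and TAGLN at 1.32 and 2.68 CPM (-0.94). With library size alone as the scaling TAGLN was at -1.02, which makes 5 of 9 members past 2-fold, beside 22.3% of genes. CNN2 (0.20), CALD1 (0.03) and TPM1 (0.29) were within 2-fold. Immediate targets of SRF and YAP differed far more in this pair, with 8 of 11 past 2-fold lower without STAG2 and a median of -2.81. FOS (-7.86) and EGR3 (-8.69) led, and the summed level was 157 CPM against 2500 CPM in the KI. In SK-N-MC the same sum was 399 against 502 CPM. There 2 of 11 were past 2-fold higher (EGR1 2.20 leading) and 4 lower (ANKRD1 -2.76 the lowest). Of 5 striated muscle markers in the A4573 pair, 4 were past 2-fold lower without STAG2 (TNNC1 -2.33 and TNNT1 -1.88 the lowest, median -1.40), with a sum of 11.8 against 22.9 CPM in the KI. Ewing sarcoma markers summed to 1565 against 2609 CPM and fibroblast markers to 131 against 261 CPM, with 0 of 7 and 0 of 5 past 2-fold. In SK-N-MC without against with STAG2, the sums were 133 against 75.1 CPM for striated muscle, 1737 against 1978 CPM for Ewing sarcoma and 187 against 209 CPM for fibroblast markers. Past 2-fold there were 1 of 5 striated muscle markers higher and 0 lower, and 1 of 7 Ewing sarcoma markers higher and 2 lower. Of 6 fibroblast markers 1 was past 2-fold higher (DCN 3.47) and 2 lower. The part of these lists in the ACTA2 values was not tested.

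Loss of STAG1 was compared as the other cohesin paralogue. ACTA2 was at 136 CPM in the WT clone, 99.97 CPM in the parental line, and 205, 221 and 183 CPM in the STAG1 KO libraries. CALD1 was at 142 and 167 CPM against 307, 216 and 266 CPM, and TPM2 at 27.5 and 32.2 CPM against 41.9, 41.2 and 68.3 CPM. With TAGLN (10.0 and 9.77 CPM against 15.4, 18.2 and 10.3 CPM) and CNN2 (148 and 147 CPM against 206, 159.5 and 169 CPM), 5 of 9 members were higher than both controls and none lower, beside 46.4% of genes that did not overlap. CNN3 (141 and 185 CPM against 198, 184 and 163 CPM) and TPM1 (15.4 and 21.8 CPM against 24.9, 21.9 and 19.7 CPM) overlapped, as did the low CNN1 and LMOD1. The log2 fold changes were 0.78 ± 0.16 for ACTA2, 0.77 ± 0.17 for CALD1 and 0.76 ± 0.25 for TPM2 (2 control and 3 KO libraries, edgeR adjusted p = 0.0505, 0.0566 and 0.132).

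edgeR's quasi-likelihood test called 0 of these 9 members, where it called 5.27% of 14373 genes, 2.77% higher and 2.5% lower. ACTA2, CALD1 and TPM2 were the 3 members at an unadjusted p under 0.05, as were 24.9% of genes, and DESeq2 called these 3 and 9.53% of 20397 genes. CALD1 was called by edgeR without the library numbered 1 or 5 (adjusted p = 0.0456 and 0.0445). Fibroblast markers were at a summed 1122 to 1544 CPM in the STAG1 KO libraries against 478 and 554 CPM in the controls, with COL1A1 (3.27) called higher and LUM (-5.08) lower of 6, and immediate targets were at 649 to 853 CPM against 451 and 500.4 CPM with 4 of 11 called higher. Their part in the values of ACTA2, CALD1 and TPM2 was not tested.

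Loss of either paralogue differed in its effect on ACTA2. Each taken against the controls of its own experiment, the difference was -1.78 ± 0.39 on the log2 scale (16 libraries, edgeR adjusted p = 0.0150). The WT clone made up more of the controls in experiments 1 and 2 than in experiment 3, and ACTA2 was higher in it than in the parental line (0.80 ± 0.13). The fit had no term for the kind of control, and the part of this imbalance in the difference was not tested. ACTA2 was the only 1 of 9 members called, beside 6.11% of 14696 genes, 2.36% with a positive and 3.75% with a negative difference. Leaving out 1 library at a time gave -2.03 to -1.56, and the call held in 14 of 16 fits. It was lost without the parental library of experiment 3 (adjusted p = 0.153) or its WT clone library (0.053). The next member was CALD1 at -0.83 ± 0.29 (adjusted p = 0.122), called without STAG2 KO clone 5 (0.0373). CNN1 was at 1.17 ± 0.96, CNN2 at -0.54 ± 0.56, TPM2 at -0.33 ± 0.71, TPM1 at 0.25 ± 0.72, CNN3 at 0.17 ± 0.33, TAGLN at 0.16 ± 1.15 and LMOD1 at -0.09 ± 1.24, with edgeR adjusted p of 0.593 to 0.984, and MYL9 was too low to be tested.

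Loss of PRC2 was followed by lower levels of TPM1, CALD1 and CNN3, with no change called in ACTA2. TPM1 was at 21.5, 18.5 and 11.2 CPM in the EZH2 KO libraries and 18.9, 14.6 and 15.9 CPM in the SUZ12 KO libraries, against 115, 116 and 182 CPM in the controls that both comparisons share. CALD1 was at 187, 138 and 93.8 CPM and at 163, 142 and 170.0 CPM against 405, 443 and 337 CPM. CNN3 was at 175, 179.6 and 158 CPM and at 169, 153 and 180.3 CPM against 326, 351 and 319 CPM. None of these 3 overlapped with the controls, and the KO levels of TPM1, CALD1 and CNN3 lay in the range of the controls of experiments 1 and 3 or below it.

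TAGLN and CNN2 were low in the same libraries with wider spread. TAGLN was at 15.5, 14.7 and 9.35 CPM in EZH2 KO and 10.1, 6.99 and 8.53 CPM in SUZ12 KO against 75.3, 65.8 and 108 CPM. CNN2 was at 124, 142 and 62.2 CPM and at 81.9, 93.2 and 58.2 CPM against 265, 205 and 269 CPM. All KO libraries were again below all controls for both genes, so that 5 of 9 members were lower and apart in each KO. In EZH2 KO, 2 more were higher and apart, TPM2 and CNN1 (1.88, 1.26 and 0.811 CPM against 0.684, 0.706 and 0.725 CPM), and in SUZ12 KO the other 4 overlapped. Beside them, 48.1% of genes did not overlap in EZH2 KO (24.9% lower) and 50.8% in SUZ12 KO (27.2% lower), and 19.6% were lower in all 6 PRC2 KO libraries.

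Past the test, 3 of 9 members were called in EZH2 KO, all lower, where 15.7% of 15130 genes were called and 3.69% called lower: TPM1 (-2.92 ± 0.46), CALD1 (-1.41 ± 0.28) and CNN3 (-0.87 ± 0.22), with edgeR adjusted p of 0.0018, 0.00546 and 0.0192. In SUZ12 KO, 5 of 9 were called, all lower, where 20.6% were called and 5.87% called lower: TAGLN (-3.21 ± 0.95), TPM1 (-2.99 ± 0.47), CNN2 (-1.59 ± 0.44), CALD1 (-1.25 ± 0.27) and CNN3 (-0.92 ± 0.22), with adjusted p of 0.0328, 0.00113, 0.0243, 0.00787 and 0.0116. In EZH2 KO, TAGLN was at -2.57 ± 0.92 and CNN2 at -1.08 ± 0.43 (edgeR adjusted p = 0.0829 and 0.117). The median log2 fold change of the 9 members was -0.87 in EZH2 KO and -0.92 in SUZ12 KO, against 0.04 and 0.01 over all genes tested. TPM1 and CALD1 were called in every fit that left out 1 control library or 1 library of the KO tested. CNN3 was called in 2 of 6 for EZH2 KO and 5 of 6 for SUZ12 KO, CNN2 in 1 of 6 and TAGLN in 0 of 6 for SUZ12 KO. The lost calls had adjusted p of 0.052 to 0.0644 for CNN3 in EZH2 KO (without either WT clone library or clone 1 or 3), 0.0518 for CNN3 in SUZ12 KO (without clone 2), 0.0551 to 0.0685 for CNN2 (held only without the second WT clone library) and 0.0615 to 0.117 for TAGLN.

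The alpha-actin ACTA2 and the tropomyosin TPM2 were not called lower. ACTA2 was at 106, 208 and 40.6 CPM in EZH2 KO and 95.2, 119 and 62.3 CPM in SUZ12 KO against 128, 114 and 74.3 CPM, a spread that took in the controls (0.26 ± 0.45 and -0.13 ± 0.45, edgeR adjusted p = 0.731 and 0.866). TPM2 was at 68.3, 109 and 65.3 CPM in EZH2 KO, above all controls (31.1, 26.8 and 63.2 CPM), and at 28.6, 63.5 and 59.0 CPM in SUZ12 KO, among them (1.09 ± 0.38 and 0.39 ± 0.38, adjusted p = 0.074 and 0.49). Without the parental library, whose 63.2 CPM stood apart from the other controls, TPM2 was called higher in EZH2 KO (1.56, edgeR adjusted p = 0.0264), beside 9.28% of genes, and DESeq2 called it on all libraries (0.0362). Without any other single control or EZH2 KO library edgeR did not call it, and the STAG2 KO and SUZ12 KO libraries of the same fit were not left out. The other calponin and the leiomodin stayed low: CNN1 ranged from 0.432 to 3.81 CPM and LMOD1 from 0.0954 to 1.97 CPM over the 6 PRC2 KO libraries, against 0.684 to 0.725 and 0.114 to 0.192 CPM in the controls. LMOD1 was at 2.62 ± 1.18 in EZH2 KO and 2.35 ± 1.18 in SUZ12 KO (edgeR adjusted p = 0.158 and 0.185), and CNN1 at 0.98 and 1.56 (0.377 and 0.145), called in SUZ12 KO without clone 3 (2.01, adjusted p = 0.0409). Summed striated muscle markers were at 53.0 to 85.3 CPM in EZH2 KO and 69.2 to 120.3 CPM in SUZ12 KO, against 8.79 to 16.2 CPM in the controls. TNNT1 (3.17 and 3.54) was the 1 called of 3, whose median log2 fold change was only 0.18 and 0.16. Ewing sarcoma markers overlapped, at 2730 to 3235 CPM over the 6 libraries against 2831 to 3015 CPM, with NKX2-2 (1.74 and 2.03) and PRKCB (1.19 and 1.48) called higher in both and LIPI (-1.15) lower in SUZ12 KO. Fibroblast markers were at 459 to 903 CPM against 600.3 to 1192 CPM, with PDGFRA (1.13 and 1.59) called higher and COL3A1 (-2.41 and -4.13) lower. The part of these markers in the members' values was not tested.

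**Figure D3:**
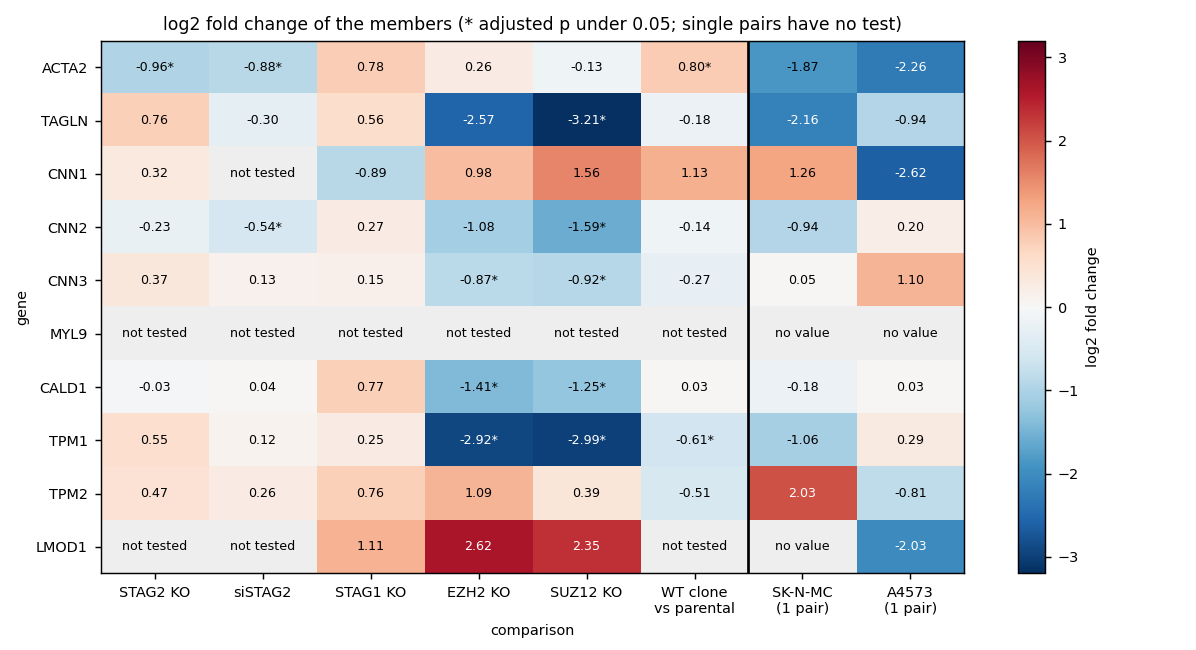
Log2 fold change of each of the 10 genes (rows) in 8 comparisons (columns), coloured from lower to higher, with an asterisk where the adjusted p is under 0.05; the 2 columns after the vertical line are the single pairs of SK-N-MC and A4573, without against with STAG2, and have no test. ACTA2 carries an asterisk in STAG2 KO (-0.96) and siSTAG2 (-0.88), and TPM1, CALD1 and CNN3 carry one in both PRC2 KO columns.

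Between the KO of the 2 PRC2 subunits no member passed the test. EZH2 KO minus SUZ12 KO was 0.70 ± 0.38 for TPM2, 0.64 ± 0.90 for TAGLN, 0.51 ± 0.43 for CNN2, 0.39 ± 0.45 for ACTA2, 0.27 ± 1.002 for LMOD1, 0.07 ± 0.44 for TPM1, 0.05 ± 0.22 for CNN3, -0.17 ± 0.27 for CALD1 and -0.58 ± 0.68 for CNN1. MYL9 was too low to be tested. edgeR's quasi-likelihood test called 0 of 9 members, with 0 at an unadjusted p under 0.05, DESeq2 likewise calling 0. Of 15130 genes, 1 (0.00661%) was called, and 629 had an unadjusted p under 0.05. STAG2 KO did differ from PRC2 KO when set against the mean of both in experiment 2, with 5 of 9 members called beside 29.7% of genes. TAGLN (3.01 ± 0.73), TPM1 (2.66 ± 0.36), CALD1 (1.15 ± 0.23) and CNN3 (1.03 ± 0.18) were higher in STAG2 KO and TPM2 (-1.39 ± 0.35) was lower, with edgeR adjusted p of 0.00966, 0.000363, 0.00313, 0.00162 and 0.0112. ACTA2 was at -0.83 ± 0.41 (adjusted p = 0.15), CNN2 at 0.53 ± 0.37 (0.307), LMOD1 at -0.26 ± 0.89 (0.853) and CNN1 at 0.04 ± 0.59 (0.97). Leaving out 1 STAG2 KO or PRC2 KO library gave 3 to 6 calls. There were 6 without STAG2 KO clone 5 (CNN2 added, edgeR adjusted p = 0.0142) or EZH2 KO clone 3 (ACTA2 added, 0.0224). There were 3 without STAG2 KO clone 2, where TAGLN (edgeR adjusted p = 0.0655) and TPM2 (0.0533) were lost. The share of all genes called moved alike, to 42.7% without clone 5 and 20.2% without clone 2.

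The 2 kinds of A673 control were also compared, because the members differ between them. ACTA2 was higher in the WT clone than in the parental line in all 3 experiments, at 201 and 199 against 86.3 CPM, 128 and 114 against 74.3 CPM, and 136 against 99.97 CPM. TPM1 was lower in all 3, at 29.0 and 26.7 against 42.5 CPM, 115 and 116 against 182 CPM, and 15.4 against 21.8 CPM. Both passed the test, ACTA2 at 0.80 ± 0.13 and TPM1 at -0.61 ± 0.08 (5 WT clone and 3 parental libraries, edgeR adjusted p = 0.0129 and 0.00443). They were 2 of 8 members, beside 2.72% of 14167 genes called, 1.76% higher and 0.96% lower. The ACTA2 call was lost without the first or the second WT clone library of experiment 2 (adjusted p = 0.0774 and 0.0588). CNN1 was at 1.13 ± 0.40, TPM2 at -0.51 ± 0.19, CNN3 at -0.27 ± 0.11, TAGLN at -0.18 ± 0.17, CNN2 at -0.14 ± 0.10 and CALD1 at 0.03 ± 0.10, with edgeR adjusted p of 0.21 to 0.896, and LMOD1 was too low to be tested. TPM2 was called without the parental library of experiment 1 (-0.76, adjusted p = 0.0379).

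MYL9 was the member with the fewest counts. In the count tables it had 6, 11 and 4 counts in the 3 parental libraries, 1 count in EZH2 KO clone 2 and 0 counts in each of the other 22 libraries, including all 5 of the WT clone. A count of 0 in a library allows up to 3 counts, so MYL9 was at or near the limit of detection in these libraries. It did not pass the filter on low counts in any main fit. In the test between experiments 1 and 2 it did pass in 2 fits that left out 1 library (0.87 and 0.93, called in 0). In experiment 4, whose table was made separately, it had 9, 3 and 5 reads after the control transfection and 5, 1 and 4 after siSTAG2.

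Other genes of the contractile apparatus came from a list of 36 that held kinases, phosphatase subunits, adhesion plaque and cytoskeletal proteins. In STAG2 KO, 3 of 25 tested were called higher and 4 lower, beside 6.67% and 5.76% of all genes: the light chain kinase MYLK (3.13) and the cGMP-dependent kinase PRKG1 (3.41) led upwards, and the intermediate filament protein synemin, SYNM (-3.73), and the actin scaffold PALLD (-0.89) downwards. After siSTAG2, 0 of 22 were called higher and 8 lower by limma, beside 9.54% and 11% of all genes, with SYNM (-2.08) and vinculin, VCL (-0.50), the lowest. In EZH2 KO, 2 of 29 were higher (MYLK 2.81 and the leiomodin LMOD2 3.34) and 4 lower (SYNM -2.21 and VCL -1.26 the lowest), beside 12% and 3.69% of all genes. In SUZ12 KO 2 were higher (MYLK 3.06 and LMOD2 3.28) and 6 lower (SYNM -2.45 and VCL -1.45 the lowest), beside 14.7% and 5.87%. In STAG1 KO, 4 of 25 were higher, MYLK (3.12) and CSRP1 (1.20), a LIM protein of smooth muscle, leading, and 0 lower, beside 2.77% and 2.5%. For the WT clone against the parental line edgeR called 0 of 25, beside 2.72% of all genes. In STAG2 KO against PRC2 KO, 6 of 29 were higher (PRKG1 3.46 and LPP 1.08 leading) and 2 lower (PDLIM1 -5.18 and LMOD2 -2.82), beside 13.8% and 15.9%, and in the STAG2 against STAG1 effect 2 of 27 had a negative difference (PDLIM1 -7.33 and SYNM -5.04), beside 3.75%. Of the defining smooth muscle markers, SMTN and SYNPO2, the 2 tested most often, were called in no comparison, SMTN being at 0.25 ± 0.17 in STAG2 KO and 0.07 ± 0.20 after siSTAG2.

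Genes of the SRF and MRTF axis and its regulators formed a list of 25. FHL2 (1.36) and FHL1 (0.98), LIM cofactors of SRF, were the 2 of 23 called in STAG2 KO, where 12.4% of all genes were called. After siSTAG2, FHL2 (0.92) and SRF itself (0.28) were higher and 6 were lower, led by TGFB2 (-1.73) and TGFBR1 (-0.97), a ligand and a receptor of the TGF-beta pathway that induces ACTA2 in fibroblasts; of all genes 20.5% were called. In EZH2 KO, 4 of 23 were higher (TGFBR1 1.92 and FHL2 1.48 leading) and 3 lower (KLF5 -1.38 and YAP1 -0.69 the lowest), beside 15.7% of all genes called. In SUZ12 KO, 4 of 23 were higher (FHL1 1.87 and TGFBR1 1.73 leading) and 5 lower (TGFB2 -3.39 and KLF5 -1.78 the lowest), beside 20.6%. In STAG1 KO, TGFBR1 (2.38) and TGFB1 (1.02) were higher and CSRP2 (-1.38) lower of 23, beside 5.27%. In STAG2 KO against PRC2 KO, 6 of 23 were higher (KLF5 1.37 and YAP1 1.11 leading) and 4 lower (TGFBR1 -2.58 and TGFB1 -1.5 the lowest), beside 29.7%, and in the STAG2 against STAG1 effect 3 of 23 had a negative difference (TGFBR1 -3.44 and TGFB1 -1.20 the lowest), beside 6.11%. Past 2-fold without STAG2 were, in SK-N-MC, 7 of 24 higher (FHL2 6.03 leading) and 3 lower (TGFBR2 -2.41 the lowest), beside 10.2% and 11.4%. For A4573 the counts were 2 of 23 higher and 2 lower, beside 7.76% and 14.1%.

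Immediate targets of SRF and YAP, read beside the same shares of all genes called, formed a list of 12. Of these, 1 was lower in STAG2 KO (EGR2, -1.54), 3 of 9 were higher after siSTAG2 (EGR1 0.94 and IER2 0.43 leading) and 1 lower (EGR2, -1.12), and in SUZ12 KO 4 were lower (CCN2 -2.75 and AMOTL2 -2.58 the lowest) and 1 higher (EGR2, 1.65). In EZH2 KO 2 of these 12 were lower (CCN1 -1.90 and AMOTL2 -1.67) and 1 higher (EGR2, 1.86), and in STAG1 KO 4 of 11 were higher (FOSB 2.64 and FOS 2.21 leading). In STAG2 KO against PRC2 KO 3 were higher (AMOTL2 1.67 and CCN1 1.56 leading) and 1 lower (EGR2, -2.86), and in the STAG2 against STAG1 effect 3 had a negative difference (FOSB -3.81 and EGR2 -2.65 the lowest). In the WT clone against the parental line AMOTL2 (-0.43) and, from the SRF list, LMCD1 (-1.40) were lower.

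Within A673 the members fell into a set that varied together and several that did not. Over the 22 libraries, with each experiment's mean taken from log2 CPM, Pearson's r was 0.96 between TPM1 and CNN3, 0.89 between TAGLN and CNN2, 0.88 between TPM1 and CALD1, 0.85 between CNN3 and CALD1 and 0.84 between TAGLN and TPM1. ACTA2 stood outside that set, with r of -0.29 with CNN3 to 0.23 with CNN2, and so did TPM2, with -0.37 with CALD1 to 0.01 with CNN2. CNN1 and LMOD1, both low, correlated at 0.64. These are descriptions over libraries that share groups, and the PRC2 KO and clone 5 libraries of experiment 2 supply much of the range. Among 11032 genes, those most like the mean of the members were RRBP1 (r = 0.899), CCN2 (0.885), RHOA (0.871), MRTFA (0.867) and BCAR1 (0.855), of which CCN2, RHOA and MRTFA also belong to the lists above.

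**Figure D4:**
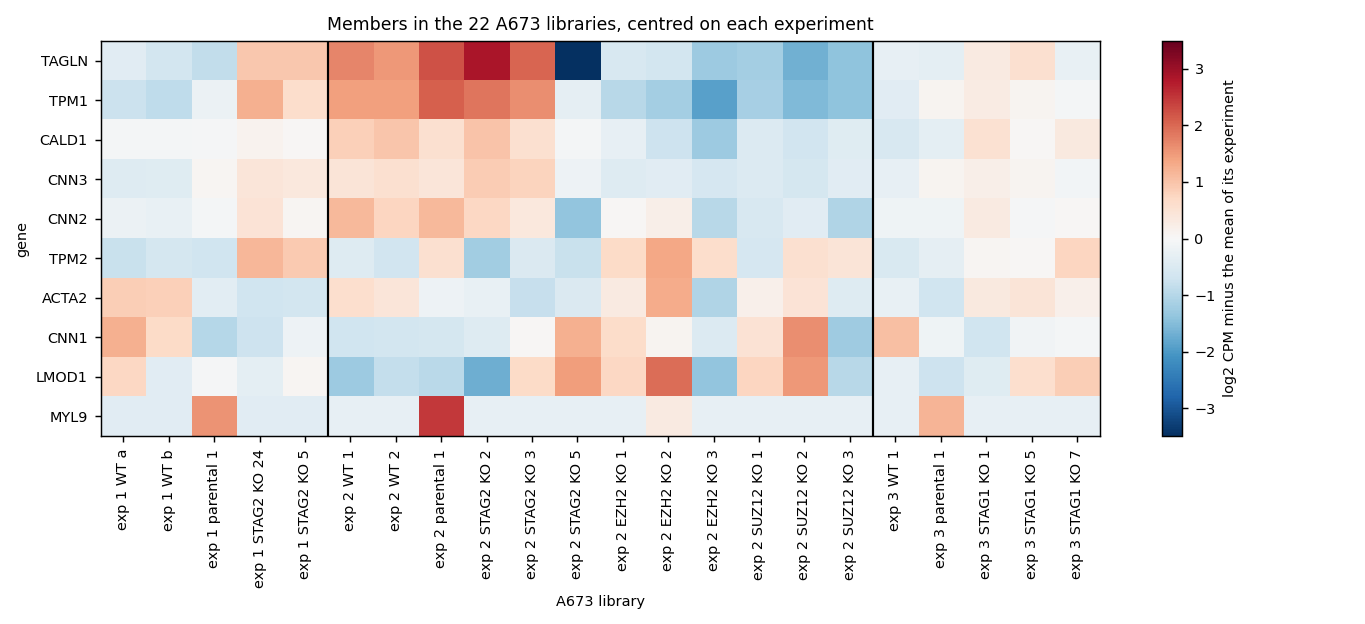
Level of each member in the 22 A673 libraries of experiments 1 to 3, as log2 CPM minus the mean of its experiment, with black lines between the experiments. TAGLN, CNN3, CALD1 and TPM1 lie below their experiment mean in all EZH2 KO and SUZ12 KO libraries. CNN2 does so in all SUZ12 KO libraries and EZH2 KO clone 3, but is at 0.03 and 0.22 in EZH2 KO clones 1 and 2. In STAG2 KO clone 5, TAGLN (-3.60) and CNN2 (-1.37) are far below it, and TPM1 (-0.31), CNN3 (-0.19) and CALD1 (-0.07) slightly. ACTA2 is below it in the STAG2 KO libraries of both experiments.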

How the data were processed

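A673, SK-N-MC and A4573 cells were profiled by RNA-seq. According to the methods, the authors made oligo-dT primed libraries that keep no strand, sequenced them from 1 end and used hg38 for alignment, and the submitters' processing notes name TopHat2 2.0.0, Bowtie 0.12.7, SAMtools 0.1.16, FastQC and DESeq2; the counting program is not given in the sources used here. The deposited values for experiments 1 to 3 and for SK-N-MC and A4573 are raw counts of reads per gene symbol. The knockdown table holds a signal, reads per Ensembl gene that the authors divided by 1 factor per library, and 100% of the values above 0 came out as whole reads within 0.01 reads. The knockdown and count tables were made separately, and levels were not compared between them; CD99, for example, is listed at 0 in the count tables only. Every sample column was used (0 left out).

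Libraries were grouped by their labels. The numbers 5 and 24 (STAG2 KO, experiment 1) and 1, 5 and 7 (STAG1 KO) in the columns could not be tied to single clones of the labels (1 and 4, and 1 to 3), so these groups were used whole.

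Counts were tested in R 4.3.3 with edgeR 4.0.16 (TMM, filterByExpr, quasi-likelihood test), adding experiment as a covariate where several were joined and fitting all 12 libraries of experiment 2 together. Knockdown values were tested with limma 3.58.1 on log2(value + 1) for genes with a mean of at least 10. All p-values were adjusted by Benjamini-Hochberg over all genes tested, with 0.05 as the threshold. Single pairs were compared on log2 CPM (prior count 2, genes summing to 10 counts or more), and their intervals are exact binomial at 95%. Groups were said not to overlap where every library of one lay beyond every library of the other. The scripts were tested on simulated data. Alternatives were DESeq2 1.42.0, RLE scaling, no filter, other pseudocounts, other controls, single experiments, recovered reads with edgeR and each library of the groups compared left out. Every member tested is named in each comparison, and from each list of pathway genes the called ones, up to the 2 highest and 2 lowest in each comparison. The members and lists were chosen with earlier results of these data known. MYL9 in every main fit, and LMOD1 and CNN1 in some fits, fell under the filter. Nothing in the labels says whether replicate libraries of the WT clone or of a transfection came from separate cultures, so their spread may be technical.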

Additional observations from a re-analysis of the deposited data

Results flagged for a closer look

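TPM2 was far from the other controls in 1 library. The parental library of experiment 2 had 63.2 CPM, while the other 5 controls of experiments 1 and 2 had 26.8 to 35.1 CPM. Without that library TPM2 was called higher in EZH2 KO (1.56 on the log2 scale, edgeR adjusted p = 0.0264) where with it the adjusted p was 0.074. The 63.2 CPM was the only 1 of 33 gap tests in groups of 5 or 6 libraries that passed the critical value, and chance passes about 1 in 20.

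The effect on ACTA2 of losing the 2 cohesin paralogues differed by its test. ACTA2 was called lower in STAG2 KO, while in STAG1 KO it was at 0.78 and not called (edgeR adjusted p = 0.0505), and STAG1 mRNA was not called lower there (0.376). The difference of the effects was -1.78 on the log2 scale (edgeR adjusted p = 0.0150, 16 libraries), and its call was lost without the parental (0.153) or the WT clone library (0.053) of experiment 3. The mix of WT clone and parental controls differed between the experiments, and its part was not tested.

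In the single pairs, 5 members had ratios of opposite sign in SK-N-MC and A4573, and 3 of them were past 2-fold in at least 1 of the lines, a difference that was not tested because each arm has 1 library. CNN1 was at 1.26 in SK-N-MC and -2.62 in A4573, TPM1 at -1.06 and 0.29, and TPM2 at 2.03 and -0.81 (log2, without against with STAG2). The other two, CNN2 (-0.94 and 0.20) and CALD1 (-0.18 and 0.03), stayed within 2-fold.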

How the results depend on the processing

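Across the alternatives the cause of each change was not tested. In STAG2 KO against control, 1 member was called, against 4 in experiment 1 alone, 0 in experiment 2 alone and 0 with the parental line alone as control (0 at an unadjusted p under 0.05, and 0.822% of all genes called). Values that changed sign were, in experiment 1 alone, CNN1 -1.11, CNN2 0.46 and CALD1 0.15; in experiment 2 alone, TPM1 -0.32 and TPM2 -0.66; with the WT clone alone, CNN1 -0.0078; and with the parental line alone, CALD1 0.051 and TPM2 -0.25. DESeq2, run without the filter on low counts, called 5 of 10 members in EZH2 KO and 3317 of 22279 genes (14.9%). With that filter, edgeR called 3 of 9 members and 2377 of 15130 genes (15.7%). DESeq2 also called 3 members in STAG1 KO (edgeR 0) and 2 in the difference between experiments 1 and 2 (edgeR 0). In STAG1 KO, RLE scaling gave 1 and no filter 2, with 5.38% of 14373 and 5.06% of 20397 genes, against 5.27% of 14373. In SUZ12 KO the WT clone alone as control gave 3 against 5 (14.9% against 20.6%). In A4573 with library size alone, CALD1 was -0.054 and 5 members in place of 4 were past 2-fold, TAGLN at -1.02 (22.3% against 21.8% of all genes).

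Each library of the groups compared was left out in turn, and the other libraries of the joint experiment 2 fit were not. This gave 0 to 4 called members in STAG2 KO (7.82 to 29.6% of all genes called), 2 to 4 in EZH2 KO (7.52 to 11.4%) and 2 to 4 in SUZ12 KO (12.1 to 20.9%). It gave 3 to 6 in STAG2 KO against PRC2 KO (20.2 to 42.7%) and 0 to 1 in STAG1 KO (0 to 9.2%, 0 without either control). The STAG2 against STAG1 effect had 0 to 2 (1.34 to 12.7%) and the difference between experiments 0 to 1 (0 to 9.88%). WT clone against parental had 1 to 3 (0.697 to 6.66%) and siSTAG2 2 to 3 (14.5 to 21%). Members whose sign depended on 1 library were, in STAG2 KO, CALD1 (-0.17 to 0.10), CNN1 (-0.21 to 0.72) and CNN2 (-0.43 to 0.041); in EZH2 KO, ACTA2 (-0.45 to 0.67); in SUZ12 KO, ACTA2 (-0.35 to 0.073); in EZH2 against SUZ12 KO, ACTA2 (-0.32 to 0.80), CALD1 (-0.43 to 0.058), CNN1 (-1.06 to 0.31), CNN3 (-0.018 to 0.10), LMOD1 (-0.85 to 0.99) and TPM1 (-0.13 to 0.30); in STAG2 KO against PRC2 KO, CNN1 (-0.68 to 0.48) and LMOD1 (-1.11 to 0.31); in STAG1 KO, CNN3 (-0.0175 to 0.35); in the STAG2 against STAG1 effect, CNN3 (-0.0196 to 0.34), LMOD1 (-0.71 to 0.28), TAGLN (-0.11 to 0.52), TPM1 (-0.045 to 0.57) and TPM2 (-0.58 to 0.016); in WT clone against parental, CALD1 (-0.12 to 0.13) and TAGLN (-0.41 to 0.21); and after siSTAG2, CNN3 (-0.046 to 0.28).

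The main fits did not pair libraries by replicate number. Same-numbered knockdown libraries correlated in their deviations at 0.0257, 0.0372 and 0.00402, and those with unlike numbers at -0.0305 to 0.00561. Same-numbered EZH2 and SUZ12 KO libraries correlated at -0.140, 0.379 and 0.321. Crossing their numbers 2 and 3 gave -0.400 and -0.368, and the other crossings -0.044 to 0.142. Whether these clones are paired by number was not tested. With the number as a block, 3 members in place of 2 were called after siSTAG2 (TPM2 with a limma adjusted p of 0.0414), beside 23.9% of all genes in place of 20.5%. In EZH2 against SUZ12 KO 0 were called, beside 0% of 14820 genes. The members with the fewest counts were MYL9 (0 to 11 per library, median 0), LMOD1 (1 to 87, median 7) and CNN1 (6 to 235, median 23), and counting error is widest in their values.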
